A study of Mus musculus with 12 samples.

Results

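Anti-Müllerian hormone (AMH) and bone morphogenetic proteins (BMPs) signal through one receptor system. Here 10 of its genes were followed in mouse ovaries with and without Foxl2 and in wild-type testes. They are the ligand genes Amh, Bmp2 and Bmp4, the receptor genes Amhr2, Bmpr1a and Bmpr1b, the antagonist gene Grem1 and the target genes Id1, Id2 and Id3. They were taken by annotated symbol, each at the probe set with the highest mean over the arrays of its table. All 10 of 10 were measured in both tables, among 19938 named genes in the adult table and 18194 in the table of ovaries at postnatal day 3 (P3).

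AMH and BMPs are secreted dimers of the TGF-beta family. AMH binds the type II receptor Amhr2, BMPs bind mainly Bmpr2 and activin type II receptors, and both then use type I receptors such as Bmpr1a, Bmpr1b and Acvr1, which phosphorylate Smad1, Smad5 and Smad9. Grem1 encodes a secreted protein that binds Bmp2 and Bmp4 and keeps them from their receptors. Id1, Id2 and Id3, direct targets of these Smads, are helix-loop-helix proteins that cannot bind DNA and that sequester E proteins. In the ovary Amh comes from granulosa cells of growing follicles, and in the testis from Sertoli cells, most strongly before puberty.

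The promoters of 3 genes that passed the test between adult mutant and wild-type ovaries are printed because they carry, or lack, letters of sites for factors of this system. They come from RefSeq (GRCm38.p6), which gave an entry for 7 of the 10 genes, and each runs from 250 bases before to 50 bases after the gene's start. The Amhr2 window lies at chr15:102445117-102445416 on the + strand, the Grem1 window at chr2:113758599-113758898 on the − strand and the Id3 window at chr4:136143572-136143871 on the + strand. Capitals mark a match to AAGGTCA, the half-site of the gonadal nuclear receptor NR5A1, in Amhr2, and a match to GGCGCC, a GC-rich site of Smad1 and Smad5, in Grem1.
Amhr2: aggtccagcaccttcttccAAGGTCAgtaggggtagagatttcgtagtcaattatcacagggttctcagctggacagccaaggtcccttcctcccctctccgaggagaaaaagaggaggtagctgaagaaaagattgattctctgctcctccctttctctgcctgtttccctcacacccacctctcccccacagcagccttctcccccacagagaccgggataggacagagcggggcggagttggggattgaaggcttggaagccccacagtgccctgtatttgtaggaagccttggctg
Grem1: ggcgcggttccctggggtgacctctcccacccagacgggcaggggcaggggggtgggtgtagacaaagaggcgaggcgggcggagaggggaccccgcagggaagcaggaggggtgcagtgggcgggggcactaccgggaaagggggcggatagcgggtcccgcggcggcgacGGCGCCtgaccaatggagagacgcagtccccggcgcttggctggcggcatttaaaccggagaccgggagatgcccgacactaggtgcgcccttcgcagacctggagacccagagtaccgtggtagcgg
Id3: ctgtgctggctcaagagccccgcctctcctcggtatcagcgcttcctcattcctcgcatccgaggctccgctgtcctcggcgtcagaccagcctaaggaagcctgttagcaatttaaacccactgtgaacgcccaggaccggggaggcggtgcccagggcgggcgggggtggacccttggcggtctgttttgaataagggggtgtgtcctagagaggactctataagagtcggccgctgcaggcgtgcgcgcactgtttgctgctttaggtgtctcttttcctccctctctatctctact
Both strands were searched for both of these motifs and for GTAAACA, a forkhead motif, and no match overlapped one of another motif. AAGGTCA lay 231 to 225 bases before the Amhr2 start, and 4.72% of 32851 listed promoters hold it. GGCGCC lay 78 to 73 bases before the Grem1 start, and also 198 to 193 bases before that of Bmpr1a and 231 to 226 bases before that of Id2. It is held by 11.9% of the promoters. The Id3, Bmp4 and Bmpr1b windows, of which Bmpr1b has 3, held none of the motifs, and GTAAACA, held by 3.65% of all promoters, was in no window of the 7 genes. A match is only a description of these letters.

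The study profiled 12 samples. Adult organs came from single mice of 8 weeks perfused with PBS. There were 3 Foxl2 mutant ovaries (labelled flox/flox x CreEBD), 3 wild-type testes and 2 wild-type ovaries, each measured as a log2 RMA level. The labels say neither what drives the Cre recombinase nor when Foxl2 was deleted, and each testis sample was part of a testis. The P3 samples were 2 pools of Foxl2 KO ovaries and 2 pools of wild-type ovaries, each of more than 10 females, not perfused, on another platform with MAS5 signals, so levels cannot be set across the ages. The number of arrays limits the precision of every value.

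Foxl2 checked the labels. It had RMA levels of 5.81, 6.04 and 5.73 in mutant ovaries, 5.22, 5.38 and 5.31 in testes, and 8.75 and 8.81 in wild-type ovaries. At P3 its signals were 186.4 and 153.7 in KO pools, against 814.5 and 829.9 in wild-type pools. Each library matched its label by this gene, which fell by 2.92 ± 0.13 in adult mutant ovaries (log2, ± SE, limma adjusted p = 5.08e-07). The summed linear levels of the granulosa markers, a list that includes Foxl2, were 4211 to 5063 in mutant ovaries, 10244 to 15001 in wild-type ovaries and 765 to 844 in testes. Inha was the most abundant of the list in mutant ovaries and testes, and Gja1 in wild-type ovaries. The summed spermatid markers were at 18459 to 20131 in testes, against 130 and 127 in wild-type ovaries.

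The 2 wild-type adult ovaries stood apart from each other in these genes, and every comparison with them rests on that pair. Amh was at 9.05 in wild-type ovary 1 and 6.03 in wild-type ovary 2, a difference of 3.02 on the log2 scale. Ovary 1 was also higher by 2.81 for Grem1, 1.94 for Bmpr1b, 1.54 for Bmp2 and 1.26 for Amhr2, whereas Id2 was lower there by 1.40 (difference -1.40). Thus 6 of the 10 genes differed by 1 or more within the pair, a spread seen in 3.41% of all genes. In mutant ovaries 1 of the 10, Bmp2, had a range of 1 or more, against 1.86% of all genes, and in testes none of the 10 had, against 0.196%. Between the same 2 ovaries, 11 of 12 oocyte markers and 9 of 10 granulosa markers were higher in ovary 1, and 3 of 3 measured corpus luteum markers and 6 of 6 endothelial markers were higher in ovary 2. The summed oocyte level was 3170 in ovary 1 and 774 in ovary 2, and that of the corpus luteum list was 1459 and 5289. Their part in the results below was not tested. Several changes are also given with each wild-type ovary alone. Such a fit holds no spread between wild-type ovaries, so the change is given without a p-value.

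**Figure D1:**
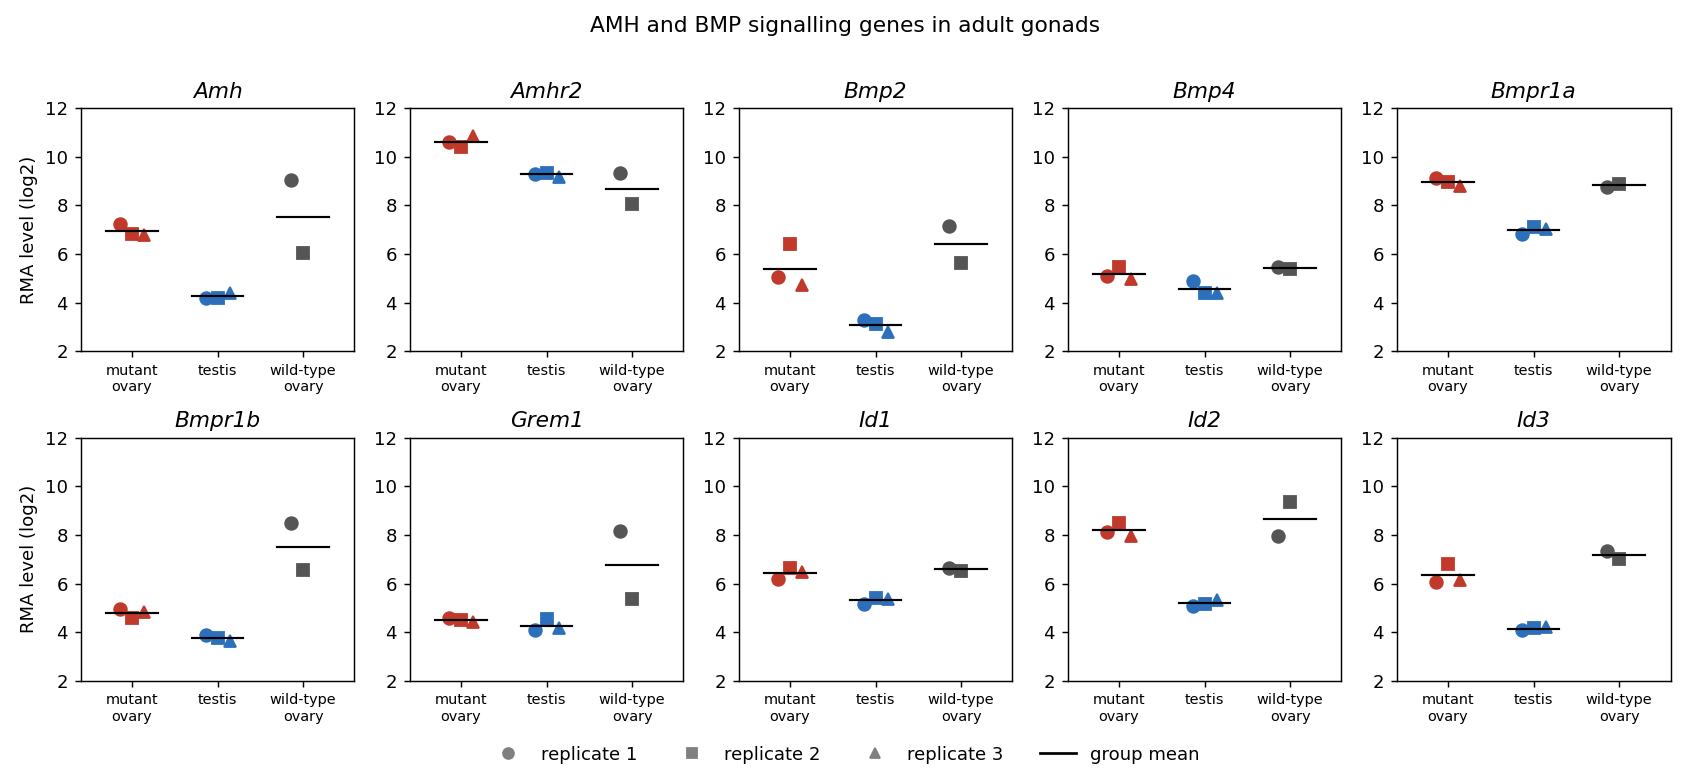
RMA levels (log2, vertical axis) of the 10 genes in each adult array, with 3 mutant ovaries, 3 testes and 2 wild-type ovaries from left to right. Points are single animals, shaped by replicate number, and lines are group means. Amhr2 is highest in the mutant ovaries, Bmpr1b and Grem1 are highest in the wild-type ovaries, and the 2 wild-type points lie far apart for Amh, Grem1 and Bmpr1b.

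In adult mutant ovaries the receptor gene Amhr2 rose 3.80-fold over wild-type ovaries, while the receptor gene Bmpr1b, the antagonist gene Grem1 and the target gene Id3 fell. Thus 4 of 10 genes passed the test (limma, adjusted p under 0.05 over all genes), 1 higher and 3 lower. Over all genes 16.2% passed, 9.55% higher and 6.66% lower. The median change of the 10 genes was -0.54, against -0.02 over all genes. The other 6 genes, among them Amh and both BMP ligand genes, did not pass.

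Among the ligands, Amh had levels of 7.23, 6.84 and 6.77 in mutant ovaries, against 9.05 and 6.03 in wild-type ovaries. The mutant ovaries all lay between the 2 wild-type ovaries, and the change of -0.59 ± 0.63 did not pass (adjusted p = 0.603, 95% interval -2.01 to 0.82). Its sign turned with the wild-type ovary used. The change was -2.10 with wild-type ovary 1 alone and 0.92 with wild-type ovary 2 alone.

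Bmp2, in rodents a product of granulosa cells, had levels of 5.07, 6.40 and 4.72 in mutant ovaries, against 7.16 and 5.63 in wild-type ovaries. The groups overlapped through mutant ovary 2, and the change of -1.001 ± 0.500 did not pass (adjusted p = 0.222). It passed without mutant ovary 2 (-1.50, adjusted p = 0.0442). The change was -1.77 with wild-type ovary 1 alone and -0.23 with wild-type ovary 2 alone. Bmp4, close kin of Bmp2 and in rodents a product of theca cells, was at 5.11, 5.49 and 4.97 in mutant ovaries, against 5.49 and 5.40 in wild-type ovaries. These levels overlapped and differed by -0.26 ± 0.20 (adjusted p = 0.443).

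Amhr2, the AMH-specific type II receptor, reached 10.59, 10.41 and 10.86 in mutant ovaries, against 9.33 and 8.07 in wild-type ovaries. Every mutant ovary was above both wild-type ovaries, and the change was 1.92 ± 0.29 (adjusted p = 0.00121). It was 1.29 with wild-type ovary 1 alone and 2.56 with wild-type ovary 2 alone.

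The type I receptor genes went different ways. Bmpr1b, whose loss makes female mice infertile, was at 4.97, 4.59 and 4.83 in mutant ovaries, against 8.49 and 6.55 in wild-type ovaries. The groups did not overlap, and the change was -2.72 ± 0.42 (adjusted p = 0.00150). With wild-type ovary 1 alone it was -3.69 and with wild-type ovary 2 alone -1.75. Bmpr1a, the more widely used type I receptor, had levels of 9.15, 8.99 and 8.81 in mutant ovaries, against 8.77 and 8.90 in wild-type ovaries. These overlapped, and the change was 0.15 ± 0.14, with a 95% interval of -0.16 to 0.45.

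Grem1, the secreted BMP antagonist, was at 4.56, 4.52 and 4.42 in mutant ovaries, against 8.17 and 5.37 in wild-type ovaries. Every mutant ovary was below both wild-type ovaries, though wild-type ovary 2 came close to the mutant level. The change was -2.27 ± 0.59 (adjusted p = 0.0262), -3.67 with wild-type ovary 1 alone and -0.87 with wild-type ovary 2 alone. The call was lost without any 1 of the mutant ovaries (adjusted p 0.0645 to 0.0691) and in a fit of these 2 groups only (adjusted p = 0.0882).

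Of the 3 Id genes, Id3 alone passed. Its levels were 6.08, 6.83 and 6.16 in mutant ovaries, against 7.33 and 6.99 in wild-type ovaries, with no overlap and a change of -0.81 ± 0.22 (adjusted p = 0.0292). The call was lost without mutant ovary 1 (adjusted p = 0.0897) or 3 (0.0879) and in the fit of these 2 groups only (adjusted p = 0.102). With wild-type ovary 2 alone the change was -0.64. Id1 had levels of 6.18, 6.63 and 6.47 in mutant ovaries, against 6.65 and 6.52 in wild-type ovaries. Its change was -0.15 ± 0.16, with a 95% interval of -0.50 to 0.20.

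Id2 was at 8.14, 8.49 and 7.95 in mutant ovaries, against 7.97 and 9.37 in wild-type ovaries, a change of -0.48 ± 0.33 that did not pass (adjusted p = 0.388). It was -1.18 with wild-type ovary 2 alone and 0.22 with wild-type ovary 1 alone. Id2 and Amh thus ran opposite ways between the 2 wild-type ovaries, and each took both signs.

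**Figure D2:**
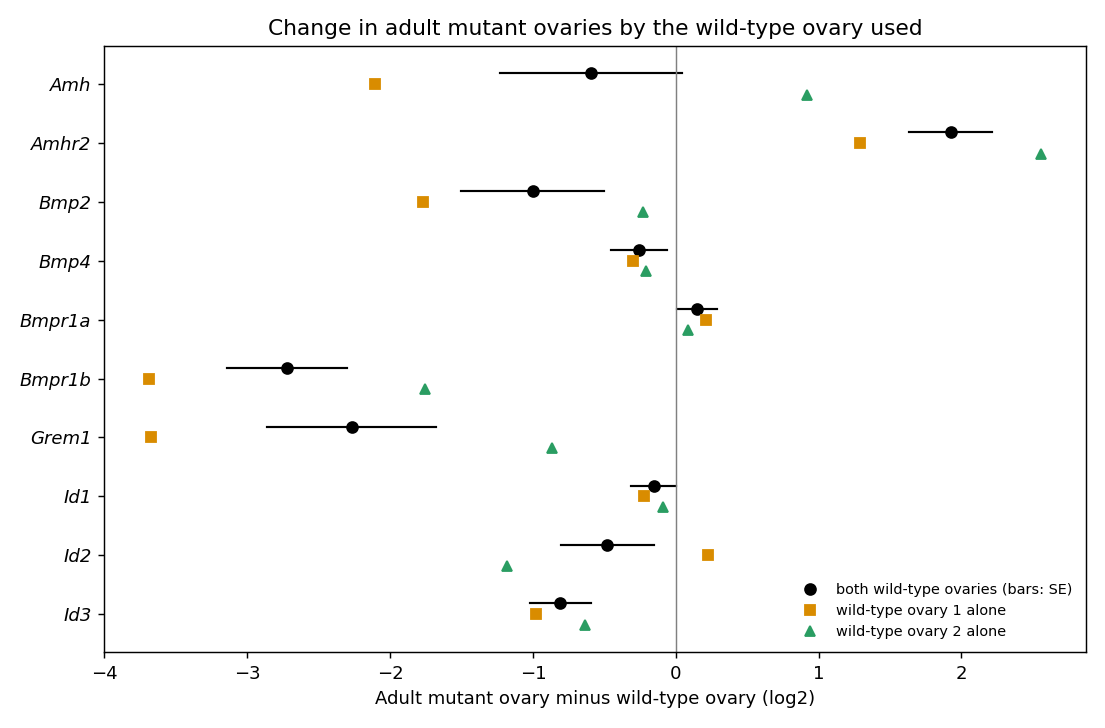
Difference in RMA level (log2, horizontal axis) of adult mutant ovaries minus wild-type ovaries for each gene, with both wild-type ovaries (circles, bars are SE), with wild-type ovary 1 alone (squares) and with wild-type ovary 2 alone (triangles). Amh and Id2 change side of 0 with the ovary used, whereas Amhr2 stays above 0 (1.29 to 2.56) and Bmpr1b below it (-3.69 to -1.75).

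Marker lists moved in the same comparison. Of 9 measured Sertoli markers 8 were higher in mutant ovaries (summed level 4913 to 5393, against 556 and 411 in wild-type ovaries). Of 10 granulosa markers 8 were lower, Foxl2 itself among them. Of 6 endothelial markers 4 were lower (summed level 709 to 880, against 1030 and 1641), as were 6 of 6 stromal and smooth muscle markers (1416 to 2350, against 3544 and 3109). None of 12 oocyte markers passed, with summed levels of 2091 to 2504 in mutant ovaries, within the wild-type values of 3170 and 774. Spermatid markers summed to 106 to 124 in mutant ovaries and to 130 and 127 in wild-type ovaries, and none of the 7 passed. The part of these cells in the changes of the 10 genes was not tested, and in whole organs fewer cells of a type and less RNA per cell cannot be told apart.

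In adult testes 9 of the 10 genes had lower levels than in wild-type ovaries, and none was higher, where over all genes 35.9% were lower and 24.4% higher (60.3% passed). The median change was -2.75 for the 10 genes and -0.15 for all genes. All 7 spermatid markers rose in the same comparison, and all 10 granulosa markers and 11 of 12 oocyte markers fell, and the part of cell makeup was not tested.

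Amh was at 4.21, 4.18 and 4.41 in testes, against 9.05 and 6.03 in wild-type ovaries, and fell by 3.27 on the log2 scale (SE 0.63, adjusted p = 0.00107). The change was -4.78 against wild-type ovary 1 alone and -1.76 against wild-type ovary 2 alone. Bmp2 had levels of 3.28, 3.12 and 2.81 in testes and fell by 3.33 (SE 0.50, adjusted p = 0.000174). Bmp4 was at 4.88, 4.40 and 4.41 in testes, and its change was the smallest of the 9 calls at -0.88 ± 0.20 (adjusted p = 0.00259).

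Amhr2 was the exception among the 10 genes. Its levels were 9.32, 9.34 and 9.19 in testes, against 9.33 and 8.07 in wild-type ovaries, a change of 0.58 ± 0.29 that did not pass (adjusted p = 0.106, 95% interval -0.06 to 1.22). The change was 1.21 with wild-type ovary 2 alone and -0.05 with wild-type ovary 1 alone. All 3 testes were above wild-type ovary 2 in this receptor, and wild-type ovary 1 lay within their range. Bmpr1a, by contrast, was at 6.81, 7.11 and 7.03 in testes and fell by 1.85 (SE 0.14, adjusted p = 7.15e-07). Bmpr1b was at 3.87, 3.75 and 3.63 there and fell by 3.77 (SE 0.42, adjusted p = 1.83e-05).

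Grem1 was at 4.08, 4.56 and 4.18 in testes, where it fell by 2.50 (SE 0.59, adjusted p = 0.00392), by 3.90 against wild-type ovary 1 alone and by 1.09 against wild-type ovary 2 alone. Id1 had levels of 5.18, 5.39 and 5.38 in testes and a change of -1.27 ± 0.16 (adjusted p = 4.08e-05). Id2 had levels of 5.09, 5.17 and 5.34 and changed by -3.47 ± 0.33 (adjusted p = 4.92e-06). Id3 had levels of 4.07, 4.18 and 4.20 and changed by -3.01 ± 0.22 (adjusted p = 5.50e-07). Testes and wild-type ovaries did not overlap for any of the 3 Id genes.

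Set against testes, the mutant ovary was higher at 9 of the 10 genes and lower at none, where 37.5% of all genes were higher and 24.3% lower (61.8% passed). The median change was 1.67 for the 10 genes and 0.14 for all genes. This comparison shares its mutant ovaries with the first and its testes with the second, so it is not separate evidence. In it all 7 spermatid markers were lower in mutant ovaries, and 10 of 10 granulosa, 11 of 12 oocyte, 6 of 6 endothelial and 8 of 9 Sertoli markers were higher (summed Sertoli level 4913 to 5393 in mutant ovaries, against 1512 to 1617 in testes). The part of these cells was not tested. Mutant ovaries exceeded testes by 3.00 ± 0.29 for Id2 (adjusted p = 5.35e-06), 2.21 ± 0.19 for Id3 (2.18e-06) and 1.11 ± 0.14 for Id1 (4.01e-05).

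Amh, which Sertoli cells make, was higher in mutant ovaries than in testes by 2.68 ± 0.57 (adjusted p = 0.00177), and Bmp2 by 2.33 ± 0.45 (0.000910). Bmp4 was higher by 0.62 ± 0.17 (adjusted p = 0.00956). The receptor genes were higher by 2.00 ± 0.12 for Bmpr1a (adjusted p = 1.28e-07) and by 1.34 ± 0.26 for Amhr2 (0.000906). Bmpr1b, at 1.05 ± 0.38 (adjusted p = 0.0323), lost its call without any 1 of the 6 arrays (adjusted p 0.0516 to 0.0945). It kept the call in the other 6 alternatives (adjusted p down to 2.80e-05). Its levels of 4.59 to 4.97 in mutant ovaries and 3.63 to 3.87 in testes did not overlap. Grem1 did not pass. Its levels in mutant ovaries and testes overlapped and differed by 0.23 ± 0.53 (adjusted p = 0.741, 95% interval -0.95 to 1.41). The spread in this fit also took in the wild-type ovaries, which ranged by 1.94 for Bmpr1b and 2.81 for Grem1.

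The order of the 3 adult groups therefore differed by gene. Amhr2 was highest in mutant ovaries, and testes and wild-type ovaries followed without differing beyond their spread. Bmpr1b ran from wild-type ovaries down to mutant ovaries and then testes, though the last step lost its call when any mutant ovary or testis was left out. Grem1 was highest in wild-type ovaries, and mutant ovaries and testes overlapped. For Amh, Bmp2, Bmp4, Bmpr1a, Id1 and Id2 both kinds of ovary were above testes, and the ovaries did not pass a test between them. Id3 was highest in wild-type ovaries, then in mutant ovaries, and lowest in testes, though its call between the ovaries was lost in several alternatives. Some of these levels were low. Of all genes 11.2% lay below Bmp2 and 20.4% below Bmpr1b in testes, and 29.0% lay below Grem1 in testes and 34.1% in mutant ovaries. For scale, the mean log2 level of the spermatid markers was 3.82 to 4.00 in mutant ovaries and 4.09 and 4.10 in wild-type ovaries.

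At P3 none of the 10 genes passed the test between Foxl2 KO and wild-type ovaries on log2(signal + 16), and 2 of them, Amh and Amhr2, had an unadjusted p under 0.05. Over all genes 0.324% passed, 0.137% higher and 0.187% lower, and 1734 of 18194 genes had an unadjusted p under 0.05 by limma. Amh had MAS5 signals of 59.8 and 21.0 in KO pools, against 304.4 and 141.3 in wild-type pools. Both KO pools were below both wild-type pools, and the change was -2.08 ± 0.52 (adjusted p = 0.225, 95% interval -3.34 to -0.82). The Amh signals were low, those of the KO pools far below the P3 array medians over genes (324 to 336). Over the alternatives the Amh change ran from -2.60 to -1.42.

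Amhr2 had signals of 15147 and 16301 in KO pools, against 11577 and 10934 in wild-type pools. Again the groups did not overlap, and the change was 0.48 ± 0.12 (adjusted p = 0.209, 95% interval 0.20 to 0.76). Its other probe sets also ran higher in KO pools, at 14552 and 15915 against 10643 and 10432 in wild-type pools, and at 2493 and 2514 against 1771 and 1357. Bmp2 had signals of 121.2 and 102.8 in KO pools, against 157.1 and 142.0 in wild-type pools, a change of -0.37 ± 0.30 (adjusted p = 0.802). Thus 3 of the 10 genes had groups that did not overlap, 1 higher and 2 lower, where 38.9% of all genes did not overlap, 19.3% higher and 19.7% lower.

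At the probe set used, the other 7 genes overlapped between the P3 groups and had changes of -0.10 to 0.10, with adjusted p-values of 0.937 or more. Bmpr1b, which fell in adult mutants, had signals of 573.8 and 459.2 in KO pools, against 587.6 and 481.6 in wild-type pools (95% interval of the change -0.55 to 0.45). Another of its probe sets was lower in both KO pools (41.2 and 92.6, against 133.8 and 106.6). Its remaining probe set overlapped (110.8 and 81.0 in KO pools, against 98.6 and 258.2). Grem1 had signals of 69.6 and 130.3 in KO pools, against 83.8 and 103.4 in wild-type pools, with an interval of -0.91 to 0.99. Id3 had 773.5 and 692.0 in KO pools, against 883.3 and 558.2 in wild-type pools, with an interval of -0.53 to 0.64. These intervals are wide, since each group has 2 pools. The difference between the ages was not tested, because platform, unit, perfusion and genotype differ with age.

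Id1 had signals of 567.1 and 459.7 in KO pools, against 746.2 and 324.5 in wild-type pools, and Id2 of 2026.2 and 1839.3, against 2228.5 and 1452.5. For both genes the KO pools lay inside the wild-type range. Bmpr1a had signals of 2511.9 and 2821.8 in KO pools, against 2605.6 and 2875.3 in wild-type pools, and Bmp4 of 327.3 and 218.1, against 347.1 and 239.1. Another Bmpr1a probe set was higher in both KO pools (610.9 and 596.0, against 520.4 and 556.7). A further Bmpr1a probe set was lower there (245.8 and 238.7, against 247.4 and 334.2), and the remaining ones overlapped. Of the granulosa markers 3 of 10 fell at P3, Foxl2 itself among them (summed signal 7881 and 9219 in KO pools, against 17208 and 17870 in wild-type pools). For Sertoli markers 1 of 10 rose (11014 and 10649, against 9009 and 8872), and 2 of 12 oocyte markers fell. Of 5 measured theca and Leydig markers 1 was lower (summed signal 980 and 1012 in KO pools, against 1992 and 2418 in wild-type pools). No marker of endothelium or of smooth muscle passed at P3, and the part of these cells was not tested.

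**Figure D3:**
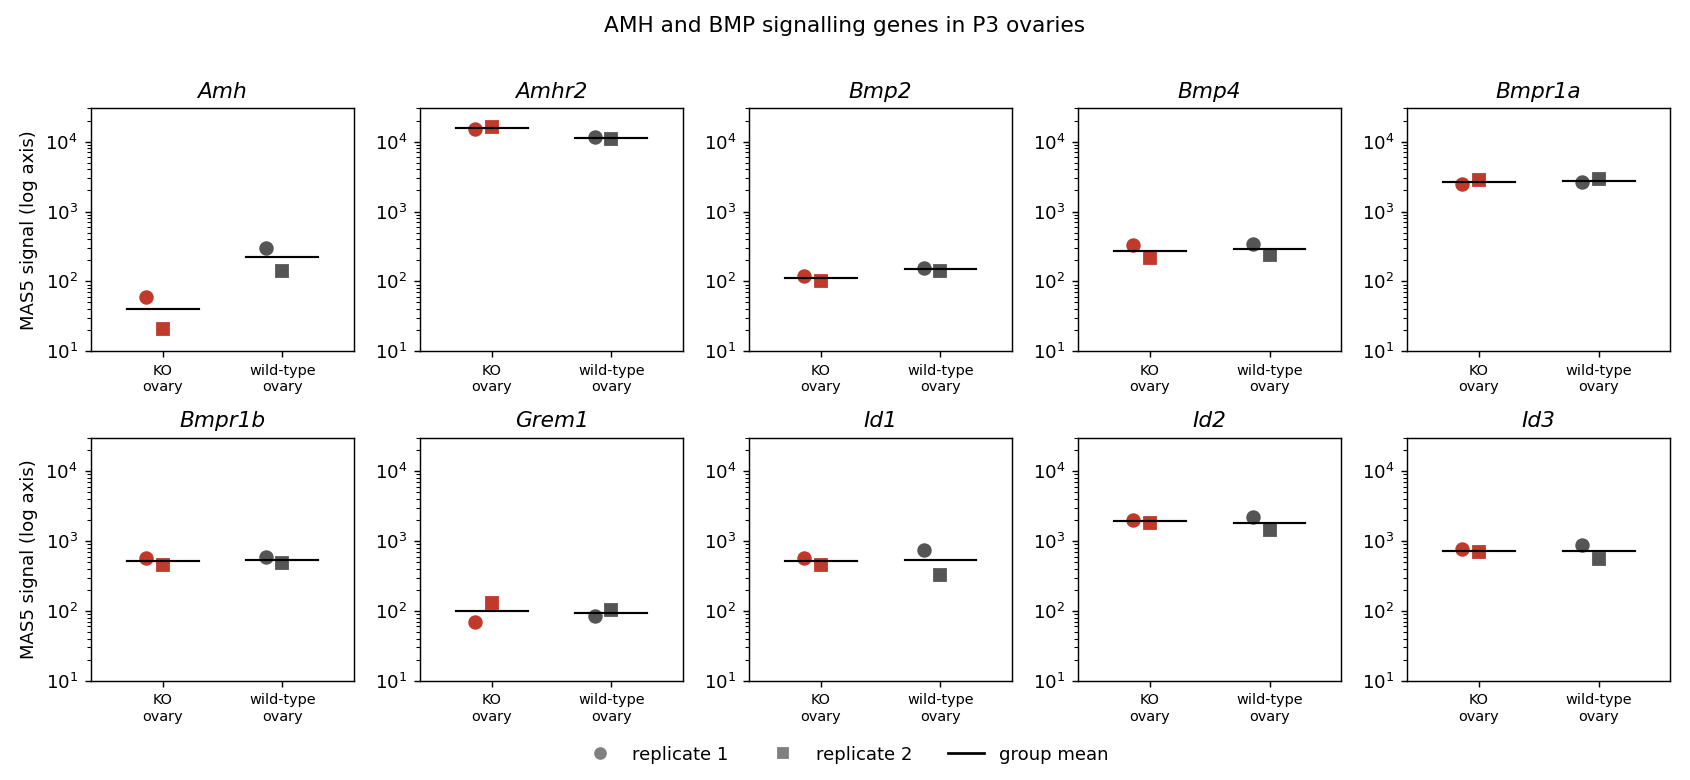
MAS5 signals (vertical log axis) of the 10 genes in each P3 pool, with 2 Foxl2 KO pools left of 2 wild-type pools. Points are pools shaped by replicate number and lines are group means. Amh lies lower and Amhr2 higher in both KO pools than in both wild-type pools, neither past the threshold, and the Id genes overlap.

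A list of 45 other genes of the pathway was examined by role, of which 44 were measured in adults and 42 at P3. Between adult mutant and wild-type ovaries 5 of 44 were higher and 3 lower, with a median change of -0.04. Both shares are near those of all genes (9.55% higher and 6.66% lower), so the calls below describe single genes and not the list. Id4, the remaining Id gene and in testis a gene of spermatogonia, rose by 0.98 ± 0.15 (adjusted p = 0.00134), where Id3 fell. Its levels were 7.01, 7.36 and 7.42 in mutant ovaries, against 6.18 and 6.38 in wild-type ovaries, with no overlap.

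Of the 8 listed receptors and co-receptors 3 rose and none fell. Rgmb, a membrane-anchored BMP co-receptor, rose by 0.98 ± 0.15 (adjusted p = 0.00148), Rgma of the same family by 0.74 ± 0.17 (0.0123) and Bambi, a pseudoreceptor without a kinase domain, by 0.78 ± 0.16 (0.00753). Among 12 ligands 1 fell, Bmp3, a ligand that opposes other BMPs, by 1.44 on the log2 scale (SE 0.25, adjusted p = 0.00310). Among 9 measured antagonists and modulators Twsg1, which binds BMPs with chordin, rose by 0.53 ± 0.13 (adjusted p = 0.0201), and Bmper, another extracellular BMP binder, had a change of -0.85 ± 0.18 (0.00929). Among 7 targets and Id partners Atoh8 had a change of -0.77 ± 0.23 (adjusted p = 0.0443). With wild-type ovary 2 alone Atoh8 changed by -0.31, and with wild-type ovary 1 alone Rgma changed by 0.55 and Twsg1 by 0.37. Atoh8 lost its call without any 1 of the mutant ovaries (adjusted p 0.0754 to 0.109). Twsg1 lost its call without mutant ovary 1 (0.0620) and under quantile normalization (0.0736). Rgma, Twsg1 and Atoh8 did not pass in the fit of these 2 groups only.

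None of the 8 Smads and Smad regulators passed between adult mutant and wild-type ovaries. Smad9 lay at the threshold, at -0.52 ± 0.16 (adjusted p = 0.0502). It passed in 5 of 11 alternatives, with the smallest adjusted p among genes with a mean level of at least 5 (0.0360). Smad1 was at 6.61, 6.90 and 6.40 in mutant ovaries, against 6.85 and 8.26 in wild-type ovaries, a change of -0.92 ± 0.33 (adjusted p = 0.0912). With wild-type ovary 2 alone it was -1.63, and with wild-type ovary 1 alone -0.21. The type II receptor gene Bmpr2 had a change of -0.52 ± 0.17 that did not pass (adjusted p = 0.0664). It passed without mutant ovary 1 (-0.66, adjusted p = 0.0320) and among genes with a mean level of at least 5 (adjusted p = 0.0495). With wild-type ovary 1 alone it was -0.75, and with wild-type ovary 2 alone -0.30. The type I receptor gene Acvr1 had a change of 0.20 ± 0.25 (adjusted p = 0.662). The oocyte ligand genes Bmp15 (0.52 ± 0.49) and Gdf9 (0.38 ± 0.45) did not pass either, and both took the opposite sign with wild-type ovary 1 alone, at -0.62 and -0.68, where their values with wild-type ovary 2 alone were 1.65 and 1.44.

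In testes 25 of 44 listed genes were lower than in wild-type ovaries and 4 higher, where 35.9% of all genes were lower and 24.4% higher. The lower ones included Bmp15 (-4.39 ± 0.49), Bmpr2 (-3.61 ± 0.17), Fstl1 (-2.64 ± 0.28), Twsg1 (-2.55 ± 0.13), Acvr1 (-2.42 ± 0.25), Tcf12 (-2.42 ± 0.13), Gdf9 (-1.85 ± 0.45) and Smad1 (-1.04 ± 0.33). With wild-type ovary 2 alone Gdf9 changed by -0.79, and with wild-type ovary 1 alone Smad1 changed by -0.34. Smad1 did not pass without testis 1 (adjusted p = 0.0578) or without testis 2 (0.0514). The 4 higher ones were Id4 (2.12 ± 0.15), Atoh8 (2.09 ± 0.23) and the ubiquitin ligase genes Smurf1 (1.09 ± 0.11) and Smurf2 (0.59 ± 0.13), whose products mark Smads for degradation. Against wild-type ovaries Id4 thus rose in both mutant ovaries and testes, and Atoh8 fell in the first and rose in the second.

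Between mutant ovaries and testes 26 of 44 listed genes were higher in mutant ovaries and 4 lower, where 37.5% of all genes were higher and 24.3% lower. Bmp15 (4.90 ± 0.43), Bmpr2 (3.09 ± 0.15), Twsg1 (3.08 ± 0.12), Fstl1 (2.75 ± 0.25), Acvr1 (2.62 ± 0.22) and Smad7 (2.48 ± 0.18) had the largest positive changes. Lower were Atoh8 (-2.86 ± 0.20), Smurf1 (-1.24 ± 0.10), Id4 (-1.14 ± 0.13) and Smurf2 (-0.48 ± 0.11). At P3 none of 42 listed genes passed, and 4 had an unadjusted p under 0.05 by limma. The smallest adjusted p was that of Gdf9 (0.0666), with signals of 5383 and 4391 in KO pools, against 9276 and 9464 in wild-type pools.

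**Figure D4:**
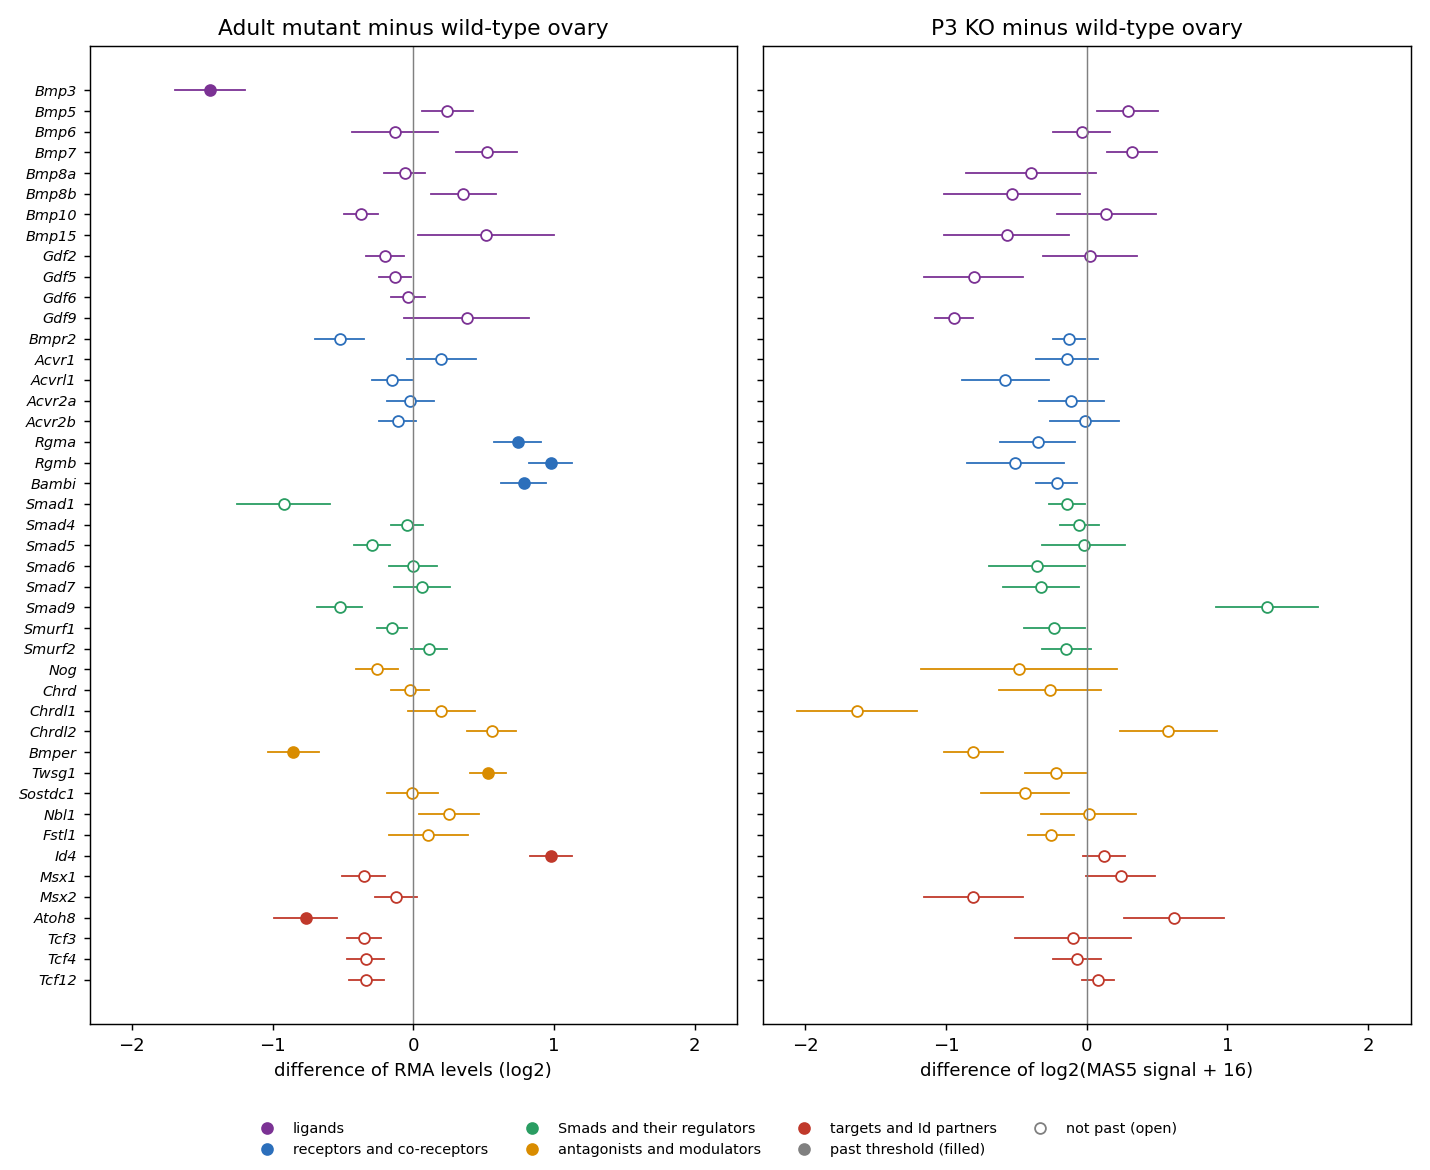
Changes of the listed pathway genes (horizontal axes) in adult mutant minus wild-type ovaries (left, difference of log2 RMA levels) and P3 KO minus wild-type ovaries (right, difference of log2(MAS5 signal + 16)). Points are estimates coloured by role with SE bars, and filled points passed the test. The 8 filled points are all adult, with Id4, Rgmb, Bambi, Rgma and Twsg1 above 0 and Bmp3, Bmper and Atoh8 below it.

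The genes whose adult pattern was most like each of the 10 were found by the root mean square difference of log2 levels, centred per gene, over the 8 adult arrays and 17423 genes. For Bmpr1b the closest were Esr2, the estrogen receptor of granulosa cells (0.233), Nnat (0.267) and Hsd11b2 (0.279). For Grem1 they were Apoa1 (0.203), Rgs13 (0.295) and Gdpd2 (0.305), and for Amh they were Cables1 (0.383), Fbxw21, of an oocyte gene cluster (0.412), and Sema5a (0.432). The levels of Apoa1, the main apolipoprotein of HDL, were 4.70, 4.28 and 4.34 in mutant ovaries, 4.20, 4.11 and 4.06 in testes, and 8.22 and 5.56 in wild-type ovaries, so it too stood high in wild-type ovary 1.

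For Amhr2 the closest were Spock2 (0.215), Kif1a (0.218) and Phf8 (0.226), and for Bmpr1a they were Mospd2, Ptp4a2 and Tmem65 (0.0978 to 0.109). Id1 lay closest to Acvrl1, a type I receptor for BMPs in endothelium (0.0671), followed by Rpl23 and Blvrb. Id3 lay closest to Mmrn1, which endothelial cells and platelets hold (0.170), then Antxr1 and P3h2, and Mmrn1 was also among the 3 nearest to Bmp2, with Lhfpl2 and Mdfic (0.382 to 0.412). Id2 lay closest to Stat5b, a transducer of prolactin signals (0.189), then P3h4 and Mgarp. Bmp4, whose group means spanned less than 1, was not ranked. These distances describe 8 arrays of 3 groups and carry no test.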

How the data were processed

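RNA from 12 mouse gonad samples was measured on arrays of 2 platforms. The adult values are log2 levels deposited after RMA (the submitters' processing notes name Affymetrix's Expression Console), and the P3 values are MAS5 signal intensities as deposited, with no array scaled again. The labels' protocols give 300 ng of RNA for each adult array and 1000 ng for each P3 array. Probe sets listed for a single gene were named through the platform annotation, with symbols updated from RefSeq (GRCm38.p6). That left 21789 of 35557 adult and 34958 of 45101 P3 probe sets, and 1621 and 932 listed for several genes were left out. The probe set with the highest mean stood for each gene.

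Groups were compared with limma 3.58.1 in R 4.3.3 (lmFit, eBayes with an intensity trend, two-sided), with Benjamini-Hochberg adjustment over all genes and a threshold of 0.05. The 8 adult arrays were fitted together, and the 4 P3 arrays apart on log2(signal + 16), a scale that understates changes of low signals. The fit was tested on simulated data. Replicates correlated at 0.969 to 0.996 over genes, and median RMA levels were 5.45 to 5.60. Deviations from the group mean correlated at -0.00279 to 0.079 between same-numbered adult samples and at 0.0423 at P3. Between testes and mutant ovaries they were 0.0575 to 0.079 for the same number and -0.0595 to -0.00165 for different numbers. In these groups of 3 every same-number value thus lay above every different-number value, though all were small. In groups of 2 the deviations mirror each other, so there this check cannot settle whether replicate numbers pair samples. Whether the numbers pair samples is not known. The main fit took no account of them, and a fit with the number as a block is given below. Adult samples are separate animals per the labels.

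The 10 genes, the pathway list and the marker lists were chosen with earlier results of these data known. Named besides the 10 genes were up to 6 called list genes in each direction, Id4, Bmp15, Gdf9, Bmpr2, Acvr1 and Smad1 always, and the 3 genes most like each of the 10 whose group means spanned 1 or more. As alternatives a fit of only the groups compared, a replicate block, no trend, other probe set rules, pseudocounts, filters, quantile normalization and each replicate left out were tried. The Leydig and theca list (6 of 8 measured in adults) had 1 gene higher and 1 lower between adult mutant and wild-type ovaries, and the leukocyte list had 2 of 5 higher.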

Additional observations from a re-analysis of the deposited data

Results flagged for a closer look

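For 6 of the 42 pathway list genes measured at both ages (14.3%) every adult mutant ovary lay on one side of the wild-type ovaries and every P3 KO pool on the opposite side of the wild-type pools. Of 16553 genes measured at both ages 6.56% did so, and of the 10 AMH, BMP and Id genes none. On the same side at both ages lay 4 of the 42 list genes (9.52%), 1 of the 10 genes and 10.6% of all genes. The list was not tested against all genes. These pairs of directions were not tested against each other, and the ages differ in platform, unit and genotype. Smad9 changed by -0.52 in adults and 1.28 at P3, where its signals were 40.2 and 39.4 in KO pools, against 9.5 and 4.7 in wild-type pools. Atoh8 changed by -0.77 in adults and 0.62 at P3, with signals of 23.1 and 20.2 in KO pools, against 9.8 and 7.2 in wild-type pools. These P3 signals, and those of Bmp10 (19.7 to 24.6), lie far below the P3 array medians over genes (324 to 336). Over the alternatives the P3 change ran from 0.55 to 2.40 for Smad9 and from 0.24 to 1.26 for Atoh8. Rgma changed by 0.74 in adults and -0.35 at P3, and Bambi by 0.78 and -0.21. Bmp10 changed by -0.37 in adults and 0.14 at P3, and Tcf12 by -0.33 and 0.080. The adult levels of Bmp10 were low too, at 2.63 to 2.79 in mutant ovaries and 3.03 to 3.10 in wild-type ovaries. The adult change of Tcf12 passed under quantile normalization (-0.47, adjusted p = 0.0308). It was -0.50 with wild-type ovary 2 alone and -0.17 with wild-type ovary 1 alone. Of the 12 values, those of Rgma, Bambi and Atoh8 in adults passed the test, and at P3 none did.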

How the results depend on the processing

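Of 443 changes of the 10 genes recomputed under the alternatives, 406 kept direction and side of the threshold, 15 lost the call, 6 gained it and 16 turned sign. These counts include fits that left 1 wild-type ovary or 1 P3 pool in a group. Between adult mutant and wild-type ovaries Amhr2 and Bmpr1b kept their calls under every alternative with more than 1 array in each group. They kept their sign under all 11 alternatives (Amhr2 1.29 to 2.56, Bmpr1b -3.69 to -1.75). In that comparison the fit of only the 2 groups called 2 of the 10 genes, 5 list genes and 1731 of all genes. Leaving out 1 mutant ovary gave 2 to 4 of the 10 genes, 7 to 9 list genes and 2540 to 2890 of all genes. Amh ran from -2.10 to 0.92, Id2 from -1.18 to 0.22, Bmp15 from -0.62 to 1.65, Gdf9 from -0.68 to 1.44 and Acvr1 from -0.076 to 0.35. Amhr2 in testes against wild-type ovaries ran from -0.049 to 1.21, and Smad1 in mutant ovaries against testes from -0.013 to 0.24. At P3, leaving out 1 pool gave ranges of -0.38 to 0.17 for Bmp4, -0.12 to 0.044 for Bmpr1a, -0.21 to 0.11 for Bmpr1b, -0.35 to 0.42 for Grem1, -0.53 to 0.63 for Id1, -0.21 to 0.41 for Id2, -0.27 to 0.38 for Id3 and -0.32 to 0.036 for Acvr1, which was 0.19 with the mean of its probe sets. No gene passed at P3 without the trend, 211 of all genes (with 1 list gene, Gdf9) at a mean signal of at least 100, and 0 to 22 with 1 pool left out. Foxl2 at P3 lost its call without the trend (adjusted p = 0.150) and without any 1 pool (adjusted p 0.0854 to 0.333). With the replicate number as a block, 3 of the 10 genes and 2674 of all genes passed between adult mutant and wild-type ovaries, Id3 (adjusted p = 0.0742) and Atoh8 (0.0641) losing their calls. Whether these numbers pair samples is not known. At P3 the block gave 1 of the 10 genes, Amh (adjusted p = 0.0338), 1 list gene, Gdf9 (0.00706), and 305 of all genes. The cause of these shifts was not tested.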
